A study of Mus musculus with 4 samples.

Results

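The genes described here are 37 mouse genes of glycolysis and of the response to low oxygen, chosen by name: the glucose transporter and enzymes that carry glucose to lactate, the lactate carriers, the switches of glycolytic flux, the subunits and sensors of the hypoxia-inducible factor (HIF), and 8 HIF target genes. They were sought among 10941 genes with a value in at least 1 set of values. In each whole tumor library 35 of the 37 were listed, and under the tumor Treg labels 23 were listed. Absence of a gene from a list does not show that it was silent. RNA came from tumors grown from 4T1 cells, a Balb/c line of mammary carcinoma, in the mammary fat pad of Foxp3-EGFP Balb/c mice, whose regulatory T cells (Tregs) carry a green reporter. The animals received a control splice modulating oligomer (Control SMO) or one directed at the long form of the prolactin receptor (LFPRLR SMO) for 12 days, with 6 mice per group. According to the paper, tumor Tregs were sorted as Foxp3-positive cells from tumors of further mice, separate from those used for whole tumor. RNA of a group was pooled, so each treatment of whole tumor was 1 library of 1 transplanted line and had no replicate. No SD, p-value or test can therefore be given, and every ratio below compares these libraries rather than the treatments.

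Glycolysis splits glucose into pyruvate in the cytosol, and lactate dehydrogenase turns pyruvate into lactate, which leaves the cell with a proton through monocarboxylate transporters. When oxygen is scarce, prolyl hydroxylases no longer mark the HIF alpha subunits for destruction by the von Hippel-Lindau protein, and HIF raises transcription of most glycolytic genes. Solid tumors and activated macrophages are both known for a high glycolytic rate.

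Each library was deposited as a list of assembled transcripts with an FPKM, which counts fragments relative to transcript length and library size. The level of a gene was the FPKM summed over its transcripts of at least 300 bases. A second measure, the exon-weighted value, multiplied the FPKM of each transcript by its exon bases inside the gene, scaled to the longest transcript annotated for that gene, so that a gene assembled in pieces was not counted once per piece. The whole tumor lists held 22481 transcripts after Control SMO and 31908 after LFPRLR SMO, and the tumor Treg list held 4838. Read totals are not given in the sources used here, so the depth behind a value is unknown. The transcripts under both tumor Treg labels were equal in all 4838 entries, so they were used as 1 set of values and allowed no comparison of treatments.

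The labels were set against marker genes. Of 12 T cell and Treg markers, among them Cd3e, Cd4, Foxp3 and Ctla4, none was listed under the tumor Treg labels. There 12 of 12 monocyte and macrophage markers were listed, with a summed FPKM of 471.9. Also listed there were 6 of 8 markers of 4T1 epithelium (summed FPKM 21.5) and 3 of 7 of fibroblasts (24.2). So were 4 of 6 of neutrophils (12.6) and 4 of 5 of erythroid cells (23.5). No endothelial, skeletal muscle or adipocyte marker was listed there. The values deposited under the tumor Treg labels thus did not carry the defining transcripts of Tregs, and they are named below only by their label. In whole tumor the macrophage markers, again 12 of 12, summed to 640.3 FPKM after Control SMO and 418.2 after LFPRLR SMO, the 8 markers of 4T1 epithelium to 290.9 and 296.4, and 7 fibroblast markers to 740.5 and 740.1. Only Ikzf2 of the T cell markers was listed in whole tumor. In bulk RNA, fewer cells of a type and less RNA per cell cannot be told apart, and the part of the macrophage difference in the ratios below was not tested.

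By FPKM, 2 of the 35 listed genes were at least a factor of 2 higher after LFPRLR SMO in whole tumor (Ldhb and Arnt), and 4 were lower by that factor (Gpi1, Pfkl, Ldha and Ankrd37). The remaining 29 lay within a factor of 2. Among 10408 genes that reached 1 FPKM in either library, 18.3% were higher and 16.6% lower by the same factor. Of these genes, 9474 were listed after Control SMO and 9592 after LFPRLR SMO. A gene listed in only 1 library passes the factor, whereas all 35 members were listed in both. The members' shares are therefore not set against a like background. By the exon-weighted value, 34 members reached 1, none was higher by a factor of 2 and only Ldha and Ankrd37 were lower. Of 8902 genes, 5.74% were higher and 8.53% lower by that value, with the same limit. The median log2 ratio of LFPRLR SMO to Control SMO, with 0.1 added to each value, was -0.15 for the members and -0.08 for all genes by FPKM, and -0.13 and -0.16 by the exon-weighted value. Of 16 members with 1 transcript in each whole tumor library, 12 had FPKM within their deposited bounds, which cover counting error only, and the bounds of the libraries overlapped for 9 of these and not for Eno1, Ldhb and Egln3. The plot of levels places the 37 genes in each set of values.

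**Figure D1:**
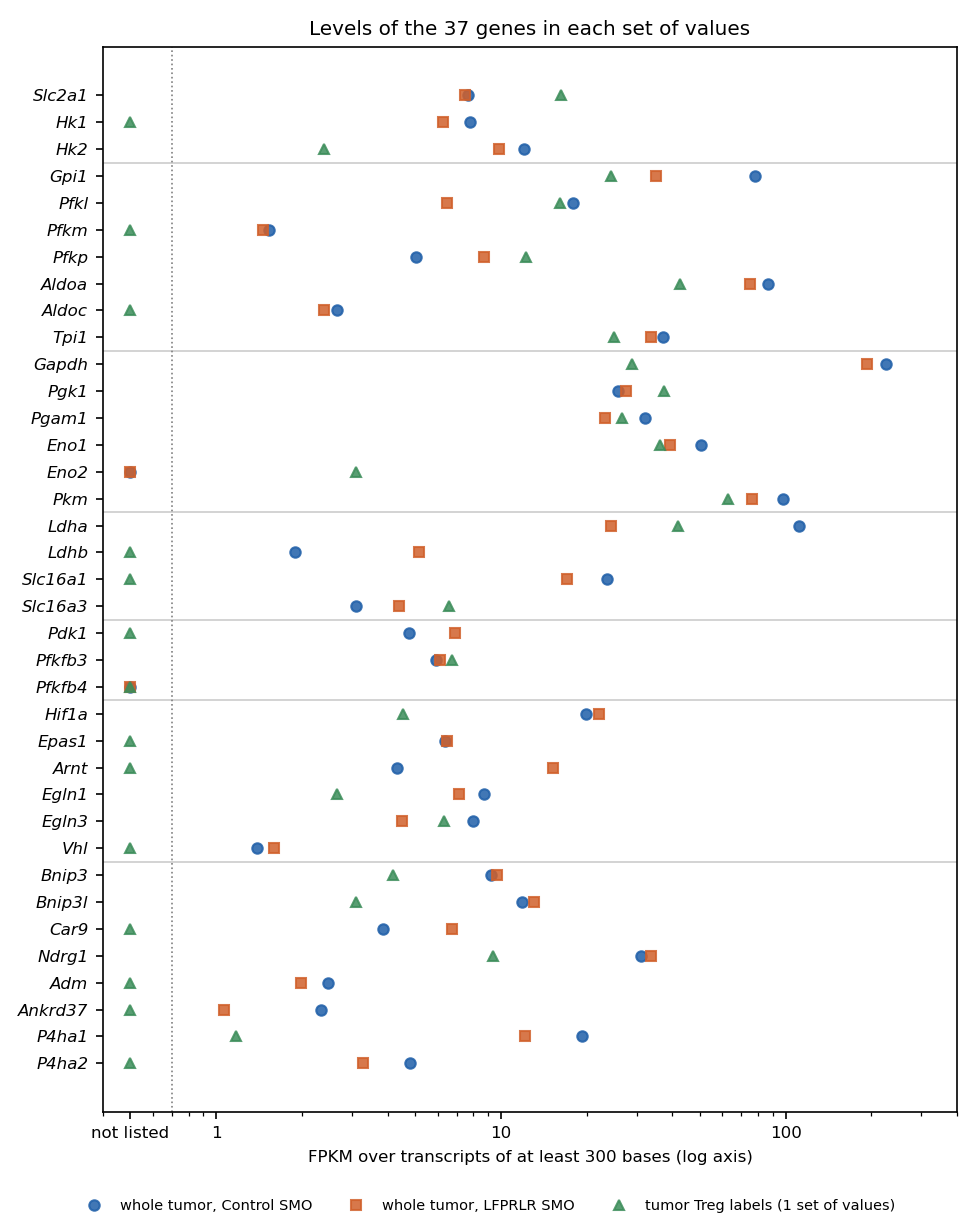
FPKM over transcripts of at least 300 bases (log axis) of the 37 genes, by role from glucose uptake at the top to HIF target genes at the bottom, with 1 point per set of values and genes without a listed transcript left of the dotted line. Gapdh was the highest member in both whole tumor libraries, at 225 and 193 FPKM, and Pkm the highest under the tumor Treg labels, at 62.5.

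The glucose transporter and both hexokinases lay within a factor of 2 between the whole tumor libraries by both measures. Slc2a1, the glucose transporter GLUT1, had 7.64 FPKM after Control SMO, 7.48 after LFPRLR SMO and 16.2 under the tumor Treg labels. It was assembled as the same complete form in all of them, and its deposited bounds in whole tumor, 6.61 to 8.68 and 6.43 to 8.53, overlapped almost fully. Hk1, the hexokinase that traps glucose as its phosphate in most tissues, had 7.79 and 6.24 FPKM in whole tumor and was not listed under the tumor Treg labels. Hk2, the inducible hexokinase, had 12.1 and 9.82 FPKM in whole tumor and 2.38 under the tumor Treg labels. Its log2 ratio was -0.30 by FPKM and 0.31 by the exon-weighted value, so the direction depended on the measure.

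Among the enzymes of upper glycolysis, 2 of 7 were lower by a factor of 2 by FPKM and none by the exon-weighted value. Gpi1 (chr7:34201330-34230336), the isomerase that makes fructose 6-phosphate, had 77.9 FPKM after Control SMO, 35.1 after LFPRLR SMO and 24.3 under the tumor Treg labels. With Control SMO it was listed as 2 pieces of 1216 and 783 bases, at 51.4 and 26.5 FPKM, whose values add up, and after LFPRLR SMO as 1 transcript of 2044 bases with all 18 exons. Its exon-weighted values were 26.1 and 22.4, a log2 ratio of -0.22. The FPKM of each Control SMO piece lay above its own deposited bounds, 38.6 to 47.4 and 16.1 to 23.9. From the middle of the bounds the exon-weighted log2 ratio of Gpi1 was -0.03. Pfkl, the liver type phosphofructokinase of the committed step, had the same layout, with 17.9 FPKM from 2 pieces after Control SMO and 6.48 from 1 transcript of 22 exons after LFPRLR SMO. Its exon-weighted values of 6.87 and 5.75 differed by a log2 ratio of only -0.25, which was -0.12 from the middle of the bounds. Under the tumor Treg labels Pfkl had 16.1 FPKM, summed over 3 pieces.

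Pfkm, the muscle type phosphofructokinase, had 1.53 and 1.47 FPKM in whole tumor and was not listed under the tumor Treg labels. Its exon-weighted values were 0.52 and 1.02, a log2 ratio of 0.86, the highest of the members by that measure, and its transcripts held 9 and 18 exons. Pfkp, the platelet type, had 5.02 FPKM after Control SMO as 1 transcript, 8.71 after LFPRLR SMO as 2 pieces, and 12.3 under the tumor Treg labels summed over 4 pieces, where the exon-weighted value was 0.83. Its log2 ratio was 0.78 by FPKM and -0.42 by the exon-weighted value. Aldoa, the aldolase of most tissues, was among the highest members, with 87.0 FPKM after Control SMO, 75.2 after LFPRLR SMO and 42.7 under the tumor Treg labels, and its log2 ratio was -0.21 by both measures. Aldoc, the brain type aldolase, had 2.65 and 2.39 FPKM and was not listed under the tumor Treg labels. Tpi1, which interconverts the triose phosphates, had 37.2, 33.6 and 24.9 FPKM in the same order.

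None of the 5 listed genes of lower glycolysis reached a factor of 2 by either measure, and by the exon-weighted value all 5 ratios were below 0. Over all genes, 5807 of 8902 ratios were below 0 by that value, so the direction was the more common 1 in these libraries. Gapdh, the dehydrogenase of glyceraldehyde 3-phosphate, had 225 FPKM after Control SMO and 193 after LFPRLR SMO, a log2 ratio of -0.22, and 29.0 under the tumor Treg labels. The FPKM after LFPRLR SMO lay above its own deposited bounds of 152.3 to 169.6, and from the middle of the bounds the exon-weighted log2 ratio was -0.40. Only 3 exons at its 3′ end were assembled under those labels, with a coverage of 106 in the last exon against 0.76 and 1.30 in the others. Gapdh has 168 annotated pseudogene copies at 90% identity or more, and 5 of them were listed under the tumor Treg labels with a summed FPKM of 46.7, above that of Gapdh itself. One copy was listed after Control SMO, at 31.2 FPKM, and none after LFPRLR SMO, so the level of Gapdh is uncertain in each set of values. Under the tumor Treg labels 1 pseudogene copy each of Eno1, Pkm and Pgam1 was also listed, at 14.3, 5.34 and 2.92 FPKM. The levels of these genes there carry the same uncertainty.

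Pgk1, which makes the first ATP of the pathway, had 25.8 FPKM after Control SMO, 27.5 after LFPRLR SMO and 37.4 under the tumor Treg labels. The Control SMO value was that of 1 piece of 9 exons. The LFPRLR SMO value added a 5′ piece of 713 bases, at 4.51 FPKM, to a piece of 9 exons at 23.0. The 5′ piece after Control SMO had 215 bases and so was not summed. Its deposited FPKM was 156.5 with an upper bound of 20.0, and it entered the exon-weighted value, whose log2 ratio was -0.99. Taken from the middle of the bounds, that ratio was -0.17. Pgam1, the phosphoglycerate mutase, had 32.1, 23.2 and 26.6 FPKM, in the order Control SMO, LFPRLR SMO and tumor Treg labels. Eno1, the enolase of most tissues, had 50.3 and 39.2 FPKM in whole tumor, with deposited bounds of 47.0 to 53.7 and 36.4 to 42.1 that did not overlap, and 36.1 under the tumor Treg labels. Eno2, the neuronal enolase, was listed only under the tumor Treg labels, at 3.10 FPKM.

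Pkm encodes pyruvate kinase, the last enzyme before pyruvate, and includes either of 2 exons of 167 bases. The M2 exon gives the form of proliferating cells and the M1 exon that of muscle and brain. They lie at chr9:59675029-59675195 (M1) and chr9:59675568-59675734 (M2) on the plus strand of GRCm38. The exons are printed because they separate the forms, with capitals marking the 64 positions at which they differ. Over the other 103 positions, 61.7% of the exon, they are identical.
M1 exon: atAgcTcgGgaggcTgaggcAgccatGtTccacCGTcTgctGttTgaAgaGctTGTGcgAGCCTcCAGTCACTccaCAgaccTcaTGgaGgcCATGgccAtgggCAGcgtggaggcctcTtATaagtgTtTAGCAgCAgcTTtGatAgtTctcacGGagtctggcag
M2 exon: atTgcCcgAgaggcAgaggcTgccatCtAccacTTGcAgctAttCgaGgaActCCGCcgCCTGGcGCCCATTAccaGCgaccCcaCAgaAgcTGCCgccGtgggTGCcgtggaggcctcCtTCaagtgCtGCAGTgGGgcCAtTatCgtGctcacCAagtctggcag

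Total Pkm was 98.2 FPKM after Control SMO, 76.5 after LFPRLR SMO and 62.5 under the tumor Treg labels, a log2 ratio of -0.36 in whole tumor. With Control SMO the M2 form had 86.7 FPKM and the M1 form 11.5, which was 11.7% of the total. With LFPRLR SMO and under the tumor Treg labels only the M2 form was listed. Of 11 skeletal muscle markers, 7 were listed in each whole tumor library, with a summed FPKM of 22.9 after Control SMO and 30.9 after LFPRLR SMO, and none under the tumor Treg labels, and the part of muscle RNA in the M1 form was not tested.

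**Figure D2:**
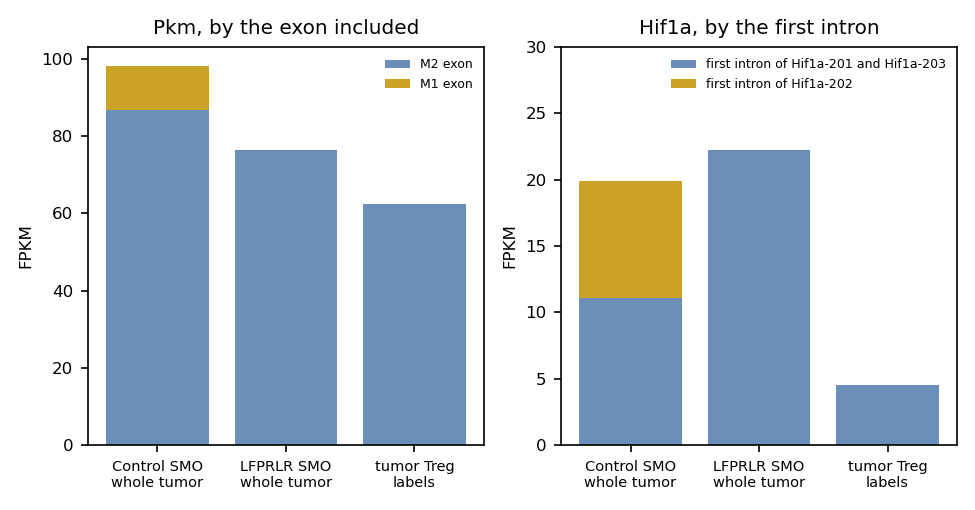
FPKM of Pkm transcripts by the exon included (left) and of Hif1a transcripts by the first intron (right) in the 3 sets of values, as stacked bars. The M1 exon of Pkm (11.5 FPKM) and the first intron of Hif1a-202 (8.86 FPKM) were listed after Control SMO only.

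Ldha (chr7:46841475-46855627), the lactate dehydrogenase subunit that favours lactate, showed the lowest FPKM ratio of the members. It had 111 FPKM after Control SMO, 24.3 after LFPRLR SMO and 42.0 under the tumor Treg labels, which in whole tumor was a log2 ratio of -2.19. With Control SMO it was listed as a piece of 768 bases with 6 exons at 75.8 FPKM and a piece of 920 bases in a single exon at 35.5. With LFPRLR SMO it was 1 transcript of 2541 bases. Its last exon ran through the intron between the last annotated exons and past the gene end, so that only 1588 of the transcript's bases were exonic. The Control SMO piece of 920 bases also began within that intron, and 651 of its bases were exonic. The FPKM of 75.8 lay above its own deposited bounds of 48.3 to 61.6. By the exon-weighted value Ldha was 44.8 and 21.3, a log2 ratio of -1.07, which was -0.71 from the middle of the bounds and -0.56 when FPKM was multiplied by transcript length. All ratios had the same direction and a size that depended on the measure. Under the tumor Treg labels Ldha was assembled with all 8 exons of the form Ldha-202.

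**Figure D3:**
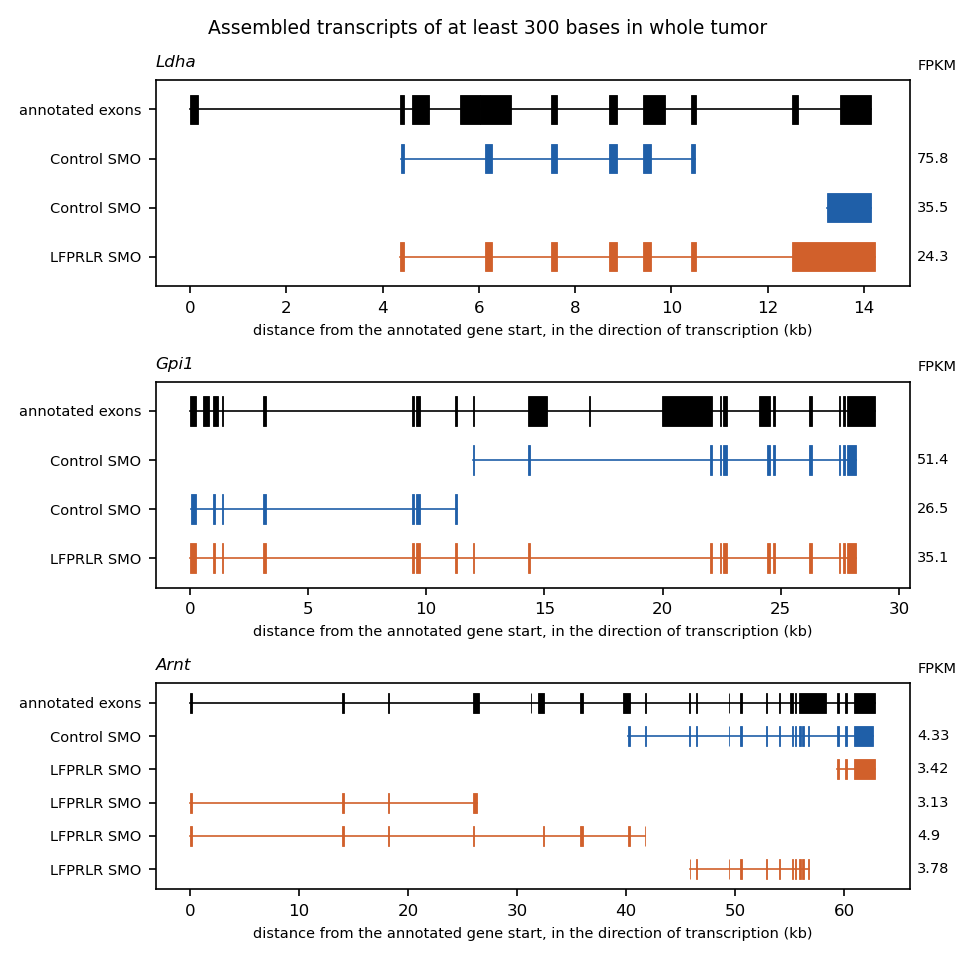
Assembled whole tumor transcripts of Ldha, Gpi1 and Arnt of at least 300 bases, with exons as boxes against the distance from the annotated gene start (kb), the union of annotated exons in black and the FPKM of each transcript at the right. Ldha and Gpi1 were in 2 pieces after Control SMO and in 1 after LFPRLR SMO, and Arnt was in 1 and 4 transcripts.

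Ldhb, the subunit that favours pyruvate, had 1.89 FPKM after Control SMO from a complete transcript of 8 exons and 5.15 after LFPRLR SMO from a partial one of 555 bases, a log2 ratio of 1.40. Its exon-weighted values were 1.84 and 2.19, and it was not listed under the tumor Treg labels. Slc16a1, the monocarboxylate transporter MCT1, had 23.5 and 17.1 FPKM in whole tumor and was not listed under the tumor Treg labels. Slc16a3, the transporter MCT4 of glycolytic cells, had 3.11 and 4.40 FPKM in whole tumor and 6.59 under the tumor Treg labels. By the exon-weighted value Slc16a3 was below 1 in both whole tumor libraries.

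The regulators of flux did not exceed 6.92 FPKM in any set of values. Pdk1, the kinase that keeps pyruvate out of the mitochondrial dehydrogenase, had 4.76 FPKM after Control SMO and 6.92 after LFPRLR SMO, and it was not listed under the tumor Treg labels. Pfkfb3, which makes the activator of phosphofructokinase, had 5.93, 6.12 and 6.71 FPKM in the order Control SMO, LFPRLR SMO and tumor Treg labels. Pfkfb4, a related enzyme, was not listed in any of them.

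Of the 3 HIF subunits, only Arnt was past a factor of 2, and only by FPKM. Hif1a, the oxygen-regulated subunit, had 19.9 FPKM after Control SMO, 22.2 after LFPRLR SMO and 4.55 under the tumor Treg labels. With Control SMO it was listed in 3 forms, 1 of which, at 8.86 FPKM, began at the upstream first exon of Hif1a-202, while every other Hif1a transcript in the 3 sets of values used the first intron of Hif1a-201 and Hif1a-203. Epas1, which encodes HIF-2 alpha, had 6.34 and 6.49 FPKM in whole tumor and was not listed under the tumor Treg labels. Arnt (chr3:95434388-95497240), the constant partner subunit, had 4.33 FPKM after Control SMO as 1 transcript of 16 exons. After LFPRLR SMO it had 15.2 FPKM summed over 4 partial transcripts, some of which overlapped, a log2 ratio of 1.79. Its exon-weighted values were 3.66 and 4.10, a log2 ratio of 0.16, and it was not listed under the tumor Treg labels.

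Of the oxygen sensors, Egln1, the main HIF prolyl hydroxylase, had 8.72 and 7.11 FPKM in whole tumor and 2.66 under the tumor Treg labels. Egln3, a hydroxylase that is itself induced by hypoxia, had 7.99 FPKM after Control SMO and 4.51 after LFPRLR SMO. Its deposited bounds, 6.84 to 9.14 and 3.75 to 5.31, did not overlap, its log2 ratio was -0.81 by FPKM and -0.60 by the exon-weighted value, and it had 6.33 FPKM under the tumor Treg labels. Vhl, the von Hippel-Lindau protein that marks HIF for destruction, had 1.39 FPKM after Control SMO from 3 exons, 1.60 after LFPRLR SMO from a single exon, and was not listed under the tumor Treg labels.

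Of the 8 HIF target genes, 4 had ratios above 0 and 4 below by FPKM, with a median log2 ratio of -0.11. Over all genes 4823 ratios were above 0 and 5585 below by FPKM, with a median of -0.08. By the exon-weighted value 3 target genes were above 0 and 5 below, and over all genes 3095 were above and 5807 below. Bnip3, a mitophagy receptor, had 9.22 and 9.71 FPKM in whole tumor and 4.18 under the tumor Treg labels. Bnip3l, its relative, had 11.9, 13.0 and 3.09 FPKM in that order. Car9, the carbonic anhydrase of hypoxic tumor cells, had 3.85 FPKM after Control SMO and 6.73 after LFPRLR SMO, a log2 ratio of 0.79 by FPKM and 0.52 by the exon-weighted value. It was not listed under the tumor Treg labels. Ndrg1, a stress-response gene, had 31.1 FPKM after Control SMO as 1 transcript, 33.7 after LFPRLR SMO as 3, and 9.41 under the tumor Treg labels. The log2 ratio of Ndrg1 was 0.12 by FPKM and -0.56 by the exon-weighted value.

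Adm, which encodes the vasodilator peptide adrenomedullin, had 2.47 and 1.99 FPKM in whole tumor and was not listed under the tumor Treg labels. Ankrd37, an ankyrin repeat gene, had 2.33 FPKM after Control SMO and 1.06 after LFPRLR SMO, and exon-weighted values of 2.08 and 0.43. Its LFPRLR SMO transcript held 2 exons with 374 of 1096 bases in annotated exons, against 4 exons and 830 of 878 bases after Control SMO, and the deposited bounds, 1.35 to 3.43 and 0.46 to 1.61, overlapped. It was not listed under the tumor Treg labels. P4ha1, a collagen prolyl hydroxylase subunit, had 19.2 FPKM after Control SMO, 12.1 after LFPRLR SMO and 1.18 under the tumor Treg labels. A further LFPRLR SMO transcript of P4ha1, of 258 bases, had a deposited FPKM of 37.2 above its bounds of 4.88 to 13.0. The log2 ratio of P4ha1 was -0.66 without it and 1.35 with all transcripts, and by the exon-weighted value it was -0.11 with it and -0.71 over transcripts of at least 300 bases. P4ha2, its isoenzyme, had 4.80 and 3.29 FPKM in whole tumor and was not listed under the tumor Treg labels.

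HIF binds the core ACGTG or GCGTG, and the RefSeq promoter windows (GRCm38.p6, 300 bases each and mostly upstream of the start) were searched for both on either strand. ACGTG also occurs within the E-box CACGTG, which other factors bind. Of 34 members with a window, 30 (88.2%) held at least 1 match in some window, against 46.7% of all 27025 genes with a window. Some windows of the same gene overlap. Over windows, 38 of 47 held a match (80.9%), against 43.8% of all 32851. The member windows also had a median GC content of 62.3% against 52.7%, and a median of 20 CG pairs against 7, and both motifs contain CG. A match describes the letters and is not a bound site. The windows of Ldha (chr7:46845554-46845853, plus strand), Ankrd37 (chr8:45999801-46000100, minus strand) and Car9 (chr4:43506776-43507075, plus strand) are printed because the first pair were the members lower by both measures and Car9 had the highest ratio among the target genes. Capitals mark the matches.
Ldha: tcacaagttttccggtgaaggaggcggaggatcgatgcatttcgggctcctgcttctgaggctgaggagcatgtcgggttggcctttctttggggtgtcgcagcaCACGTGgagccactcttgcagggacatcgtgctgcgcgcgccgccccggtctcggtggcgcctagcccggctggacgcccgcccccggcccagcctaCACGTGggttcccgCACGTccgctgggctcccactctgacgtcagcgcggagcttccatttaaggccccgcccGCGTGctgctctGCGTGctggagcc
Ankrd37: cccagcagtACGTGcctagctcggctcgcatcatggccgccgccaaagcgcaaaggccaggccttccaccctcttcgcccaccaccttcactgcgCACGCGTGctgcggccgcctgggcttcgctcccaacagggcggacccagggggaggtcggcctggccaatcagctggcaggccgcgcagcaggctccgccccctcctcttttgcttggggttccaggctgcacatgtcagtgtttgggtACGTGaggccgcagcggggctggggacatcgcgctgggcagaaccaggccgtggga
Car9: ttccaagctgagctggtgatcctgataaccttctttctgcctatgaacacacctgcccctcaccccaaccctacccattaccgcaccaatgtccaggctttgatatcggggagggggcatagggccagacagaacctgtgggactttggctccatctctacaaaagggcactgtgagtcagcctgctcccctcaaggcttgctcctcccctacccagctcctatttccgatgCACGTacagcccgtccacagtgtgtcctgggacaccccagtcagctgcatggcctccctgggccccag

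Counted on each strand, the printed Ldha window held 7 matches, 4 of them from 2 E-boxes, the Ankrd37 window 4 and the Car9 window 1. A second Ldha window, at chr7:46846832-46847131, held 2 matches and is not printed.

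The number of listed transcripts ran alongside the FPKM ratio. Most extra transcripts were pieces of a gene, but those of Pkm and Hif1a included alternative forms. The 7 members with more transcripts listed after Control SMO had a median log2 ratio of -0.53, the 18 with equal numbers -0.26, and the 10 with more after LFPRLR SMO 0.30. By the exon-weighted value the medians were -0.25, -0.11 and -0.07. Over all genes the same groups had medians of -1.07, -0.17 and 0.93 by FPKM, and -0.34, -0.22 and -0.00058 by the exon-weighted value. Genes listed in only 1 library were among these, whereas all 35 members were listed in both, so the groups are not alike. Of the 6 members past a factor of 2 by FPKM, 2 (33.3%) were past it in the same direction by the exon-weighted value. Over all genes it was 34.3% of 2161, with the same limit. An assembled intron chain equal to an annotated coding form was found for 19 of 35 listed members with each treatment in whole tumor and for 17 of 23 under the tumor Treg labels.

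**Figure D4:**
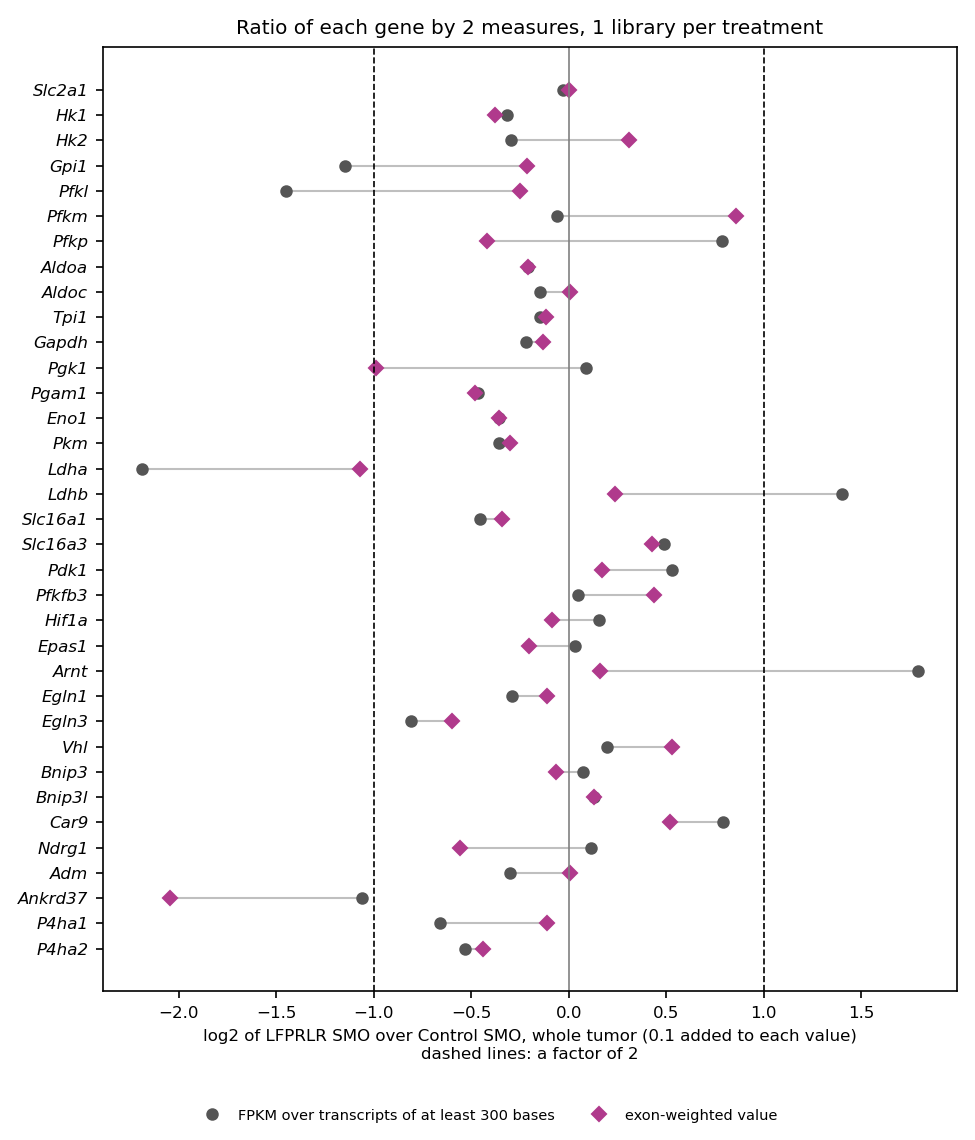
Log2 ratio of LFPRLR SMO to Control SMO in whole tumor for the 35 listed genes, by FPKM (circles) and by the exon-weighted value (diamonds), with dashed lines at a factor of 2. The circles of Gpi1, Pfkl, Ldhb and Arnt lie beyond a line and their diamonds within, while both symbols of Ldha and Ankrd37 lie beyond the line on the lower side.

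Of 35 other glycolysis, pentose phosphate and glycogen genes, 19 were listed after Control SMO and 18 after LFPRLR SMO. By FPKM 3 were at least a factor of 2 lower and none that much higher, by the exon-weighted value 1 was lower, and no gene was past it by both. Over all genes the shares were those given above, 18.3% higher and 16.6% lower by FPKM, and neither these counts nor those of the next list are read as a result about the list. The highest after Control SMO were Bsg, the chaperone of the monocarboxylate transporters, with 55.9 and 31.8 FPKM, Tkt (transketolase) with 38.5 and 27.0, and Pgd (phosphogluconate dehydrogenase) with 24.7 and 21.9. Of 39 other hypoxia genes, 31 and 32 were listed, by FPKM 6 were at least a factor of 2 higher and 2 that much lower, and by the exon-weighted value 1 was higher and 1 lower. Among their highest were Mif, a cytokine, with 67.0 and 34.4 FPKM, and Wsb1, a ubiquitin ligase subunit, with 18.6 and 14.7. Angptl4, a lipase inhibitor, was the one gene past a factor of 2 by both measures, at 1.03 and 5.16 FPKM and at exon-weighted values of 0.31 and 1.04.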

How the data were processed

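The authors deposited transcript lists on mm10, made by Cufflinks for whole tumor and StringTie 1.2.3 for tumor Tregs. The submitters' processing notes also name HISAT2 2.0.4 and Cuffdiff 2.0.2. Each deposited transcript carries an FPKM, the unit used here, and a score, which was not used. In whole tumor it also has lower and upper bounds, which cover counting error within 1 library. Both programs normalized separately, so no ratio was taken between tissues. Transcripts were assigned to GENCODE M21 genes (GRCm38) by deposited symbol, a shared intron, or 50% of exon bases. Transcripts below 300 bases held 99.4% of the summed FPKM after Control SMO and 87.2% after LFPRLR SMO, and were left out of the FPKM of genes. Genes entered the counts once they reached 1 FPKM in either library, and 0.1 was added to values before ratios. Named genes were all 37 members, the 3 highest of each other list after Control SMO and those past a factor of 2 by both measures, of which 1 is not reported here. Of the list symbols, 2 matched no annotated gene. Members and lists were chosen with earlier results of these data known. Pseudogene copies were found with blastn 2.17.0, over at least 300 bases and 50% of the copy. Counting was tested on Control SMO values with known fold changes put in. Assignment was tested only on complete annotated coding transcripts of the members, not on pieces. Scripts ran in Python 3.11.15 with numpy 2.4.6, and matplotlib 3.10.9 drew the plots.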

Additional observations from a re-analysis of the deposited data

How the results depend on the processing

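No paired analysis was possible because each treatment was 1 library. A log2 ratio or count was taken as moved past a factor of 1.5. The members higher and lower after LFPRLR SMO by a factor of 2 numbered 2 and 4. They numbered 0 and 2 by the exon-weighted value, 1 and 2 by the most abundant transcript and 1 and 1 at a factor of 3. With measures added after seeing the data they numbered 0 and 1 from the middle of the bounds, 0 and 2 by the exon-weighted value over at least 300 bases, and 0 and 0 by FPKM times transcript length. The other settings, which were all transcripts, intron-sharing transcripts only, pseudocounts of 0.01 and 1, rescaling, centring, no filter and an FPKM of at least 5, kept the counts within that factor. The median log2 ratio ran from -0.29 with intron-sharing transcripts to -0.0032 after rescaling, and the 6 members past a factor of 2 by FPKM kept their direction. Among the others, Pgk1 turned from 0.09 to -2.73 and P4ha1 from -0.66 to 1.35 with all transcripts, each through 1 transcript below 300 bases. With intron-sharing transcripts only, Vhl turned from 0.19 to -3.89, because its single-exon LFPRLR SMO transcript was left out. In that setting Pdk1 turned from 0.53 to -0.96, and Slc16a3 went from 0.49 to 4.03. The 23 members listed under the tumor Treg labels numbered 23 under all 4 alternatives. Depth is unknown.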

Other observations

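A list of 9 genes covered pyruvate entry into the mitochondrion, pyruvate dehydrogenase and the phosphatases that act on it. Of these, 9 were listed after Control SMO and 7 after LFPRLR SMO. By FPKM 4 were lower by a factor of 2 and none was higher, against 16.6% lower and 18.3% higher over all genes. Genes not listed after LFPRLR SMO were counted among the lower. By the exon-weighted value 2 of the 6 that reached 1 were lower, against 8.53% over all genes. The median log2 ratio was -0.83 by FPKM and -0.53 by the exon-weighted value, against -0.08 and -0.16 over all genes. Dlat, the acetyltransferase subunit of pyruvate dehydrogenase, had 6.06 and 2.12 FPKM, and exon-weighted values of 2.49 and 1.10. Pdhx, which anchors another subunit, had 4.73 FPKM after Control SMO and was not listed after LFPRLR SMO. The highest were Dld, with 30.7 and 17.2 FPKM, Pdha1, with 10.8 and 8.92, and Mpc1, a subunit of the mitochondrial pyruvate carrier, with 10.6 and 6.21. Under the tumor Treg labels only Pdha1 was listed, at 2.77 FPKM. There was 1 library per treatment, and the cause of these differences was not tested.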
